A study of Drosophila melanogaster with 4 samples.

Results

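The 5 genes described here are the serpins Spn43Ab and Spn55B and the serine proteases Erasp, CG1299 and Jon99Fi of Drosophila melanogaster. They were chosen by name, as the serpin and serine protease loci present in the authors' deposited table of 244 selected genes, and each was found there by its CG number. Tracheae, the air-filled tubes of the larva, were compared on 4 two-colour arrays, with 2 RNA samples hybridised to each array. Channel 1 held tracheae of the F1 larvae from crossing the driver strain NP2610 with a UAS-PGRP-LE strain, in which GAL4 made in the airways turns on the transgene for the peptidoglycan receptor PGRP-LE. Channel 2 held tracheae of the driver strain NP2610 alone. Both groups were third-instar larvae of 10 days raised at 22 °C, each RNA came from 20 pairs of tracheae, and both groups carried the driver. The titles give 2 biological replicates with 2 arrays each. Only the PGRP-LE larvae had a second parental strain, so PGRP-LE and genetic background cannot be told apart here.

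Serine proteases cut other proteins, and serpins are inhibitors that trap a protease in a covalent complex and use themselves up in doing so. In insects, cascades of serine proteases in the blood switch on the Toll pathway and melanisation, and serpins hold them in check. Other members of the family, such as the Jonah proteases, are digestive enzymes of the gut. PGRP-LE acts upstream of the immune deficiency (IMD) pathway, which ends in the NF-kappa B factor Relish and antimicrobial peptide genes.

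Both serpin genes were higher in the PGRP-LE tracheae by similar amounts, and the proteases ran in both directions. Of the 5 genes, 4 had a positive log2 ratio in the authors' deposited table, where 76.6% of all its genes did, and 1 had a negative ratio, where 23.4% did. The median of the 5 was 0.77 in the authors' deposited table, and that of all 244 genes was 0.82. These shares are close to the background and say nothing particular to serpins and proteases. The authors selected the table from these same arrays, so each member had to show a ratio there, and the ratios are given as descriptions without a test. A positive ratio is read as higher in the PGRP-LE tracheae because the table's hybridisation group carries the name of that cross, and it is likely rather than stated. In whole tracheae, more cells of a type and more RNA per cell cannot be told apart.

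**Figure D1:**
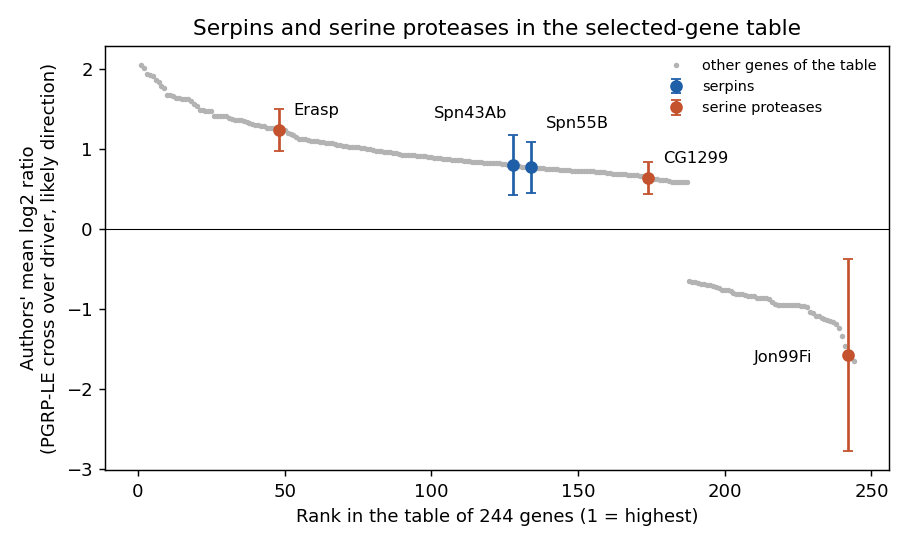
The vertical axis is the authors' mean log2 ratio and the horizontal axis the rank among the 244 genes of the table, with ties in alphabetical order. Bars are the authors' SD over valid spots for the 2 serpins (blue) and the 3 serine proteases (orange). The serpins lie side by side at 0.80 and 0.77, while the proteases run between Erasp at 1.24 and Jon99Fi at -1.58.

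Spn43Ab, a serpin encoded in a cluster of serpin genes on chromosome arm 2R, had a mean log2 ratio of 0.80 in the authors' deposited table (authors' SD 0.37 over 6 valid spots), a 1.74-fold higher level in the PGRP-LE tracheae. In the gene order of the RefSeq Release 6 annotation it is followed by Spn43Ad and by nec, which encodes Necrotic, a serpin known to restrain the Toll pathway. Neither of these was among the 244 genes, nor was Spn43Aa, 3 genes away on the other side. Absence from a table of selected genes gives no level for them.

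Spn55B, a second serpin gene on arm 2R, stood at 0.77 in the authors' deposited table (authors' SD 0.32 over 7 valid spots), a 1.71-fold higher level in the PGRP-LE tracheae. The means of the 2 serpins differed by 0.03, less than either SD. They ranked 126 and 133 from the top among the 244 genes, in the lower part of the 187 higher genes, whose median was 0.92 in the authors' deposited table. Spn55B had a narrower spread than most genes of equal coverage: of the 31 genes with 7 valid spots, 3 had a smaller SD and 27 a larger one.

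The reference lists 28 serpin genes by symbol, nec included, and Spn43Ab and Spn55B were those in the table, which holds 244 genes where the arrays hold 16224 spot pairs (1.5%). The 2 were chosen for being in it, so nothing is read from that count. The serpins Spn27A and Spn77Ba, known to limit melanisation in the blood and in the tracheae, were not among its genes.

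Erasp, on arm 2R, is annotated in the authors' deposited table as a chymotrypsin and trypsin type serine protease. Its log2 ratio of 1.24 in the authors' deposited table (authors' SD 0.26 over 6 valid spots) was the largest among these and corresponds to a 2.36-fold higher level in the PGRP-LE tracheae. It ranked 48 of 244. Relative to its mean its spread was among the tightest of the table: the authors' deposited table gives an SD that is 0.21 of the mean, the third smallest such fraction, against a median of 0.585. Of the 73 genes with 6 valid spots, 1 had a smaller SD and 71 a larger one.

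CG1299, a serine protease gene on arm 3L, had a positive ratio below those of Erasp and both serpins, 0.64 in the authors' deposited table (authors' SD 0.20 over 8 valid spots), a 1.56-fold higher level in the PGRP-LE tracheae. The lowest positive ratio in the authors' deposited table was 0.59, so CG1299 lies close to the edge of what the authors kept. Its SD was the sixth smallest of the 244 genes. The ranges of mean ± SD of Erasp (0.98 to 1.50) and CG1299 (0.44 to 0.84) did not overlap, while both serpins' ranges overlapped with each of them. These SDs are over spots, not replicates, and the separation of Erasp holds for the 6 spots the authors counted as valid. Over all 8 spots, the spot pair that matches its values averaged 0.63 with an SD of 1.17. That pair's link to Erasp is uncertain.

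Jon99Fi, a gene of the Jonah family of digestive proteases on arm 3R, had a log2 ratio of -1.58 in the authors' deposited table (authors' SD 1.20 over 8 valid spots), a 2.99-fold lower level in the PGRP-LE tracheae. A small nucleolar RNA gene at -1.65 and ed, which encodes a cell adhesion protein, at -1.61 were the 2 genes with lower ratios in the authors' deposited table, by less than the SD of Jon99Fi. Its SD was the fifth largest of the 244 genes, and of the 134 genes with 8 valid spots 131 had a smaller one. Its mean ± SD range was -2.78 to -0.38, below those of the other 4 genes. In the authors' deposited table the largest SD relative to its mean was 0.97, so no such range changes sign. That separation thus follows from the sign of the ratio alone, and the SDs are over spots, not replicates. Jon99Fii, its neighbour in the gene order and a close relative in the same family, was not in the table, and cross-hybridisation between the 2 copies cannot be resolved here.

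With a table that size against the arrays (1.5%), a short gene list is likely to have 0 or 1 gene in it. None of the other 15 Jonah genes by symbol in the reference was among the 244, and none of 16 trypsin-like and related digestive protease genes was, counts that are not particular to these families at that share. A list of 14 gut markers, 5 other Jonah proteases, trypsins and lysozymes among them, had 0 members in the table. The part of gut tissue in the Jon99Fi value was not tested, since the table gives no level for genes it leaves out. The list of 15 tracheal epithelium genes also had 0 members in it, so the labelled tissue could not be checked from the table. Markers of other cell types were in it on both sides. The authors' deposited table had 2 of 11 blood cell markers, NimB2 at 0.80 and atilla at 0.74, and 2 of 8 fat body markers, Tsf1 at 0.70 and Lsp2 at -0.86. It also had 1 of 10 muscle markers, Mf at -1.09, 1 of 5 neuronal markers, fne at -0.95, and 0 of 9 salivary gland markers. The marker lists were chosen with earlier results of these data known, so nothing is read from these counts. The part of these cell types in the serpin and protease values was not tested.

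**Figure D2:**
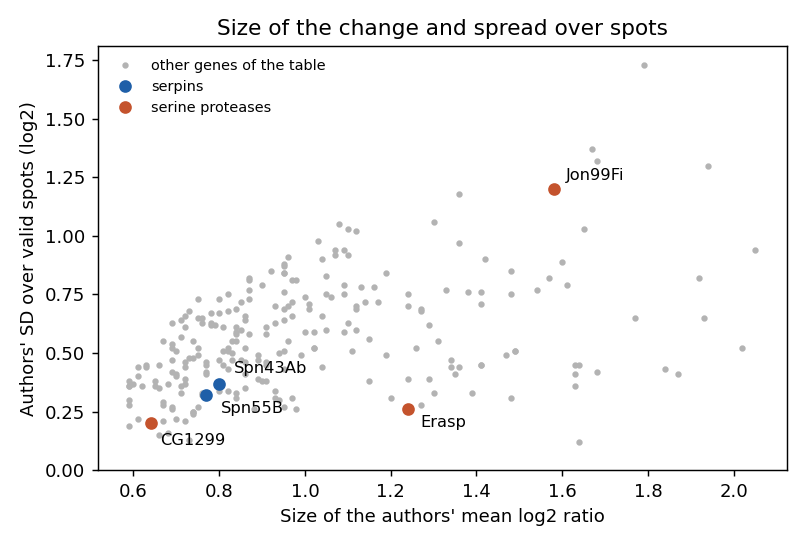
The horizontal axis is the size of the authors' mean log2 ratio and the vertical axis the authors' SD over valid spots on the same scale, for all 244 genes (grey), the 2 serpins (blue) and the 3 serine proteases (orange). Erasp combines a ratio of 1.24 with an SD of 0.26, while Jon99Fi, at a size of 1.58, has an SD of 1.20.

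Set against each other, the 2 inhibitor genes averaged 0.79 and the 3 protease genes averaged 0.10, a difference of 0.69 on the log2 scale in the means of the authors' deposited table. The difference rests on Jon99Fi. Without it the proteases Erasp and CG1299 averaged more than the serpins, and the difference was -0.155. The proteases spanned 2.82 on the log2 scale, or 0.60 without Jon99Fi, and the serpins 0.03. No test across samples was made of the difference, because Spn43Ab could not be followed on single arrays. With 2 biological replicates the smallest two-sided p of an exact sign-flip test is 0.5.

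Genes with related annotations in the file showed both directions as well. The authors' deposited table annotates 3 genes as inhibitors of serine-type endopeptidases, and all 3 were higher: Spn43Ab, Spn55B and CG3604, which stood at 1.34 (authors' SD 0.44 over 8 valid spots) and is named here after its value was seen. Of 4 genes with a serine-type peptidase term, 3 were higher and 1, Jon99Fi, was lower. The wider term for proteolysis covers 15 genes, of which 10 were higher and 5 lower, with a median of 0.67 in the authors' deposited table, against 76.6% higher in the whole table. Besides 5 serpin and serine protease genes it takes in 10 others, such as Uch, which encodes a ubiquitin hydrolase, at 0.75 and Rpt6, which encodes a proteasome subunit, at -0.84 in the authors' deposited table.

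Of 15 proteases of the Toll and melanisation cascades, 0 were in the table, psh, SPE, Hayan, MP1 and Sp7 being among those looked for, and 0 of 3 tracheal and epithelial proteases were. At a listed share of 1.5% such counts say nothing about these cascades. Of 6 melanisation enzyme genes, 1 was in the table, Ddc, which encodes dopa decarboxylase, at 1.92 (authors' SD 0.82 over 8 valid spots) in the authors' deposited table. For comparison, 9 of 20 listed IMD peptide and pathway genes were in it. That list was chosen with earlier results of these data known. All 9 were higher, where 76.6% of the table was, with a median of 1.17 in the authors' deposited table. Erasp alone of the 5 genes lay above that median. PGRP-LE, the gene of the transgene, was on the list but not in the table, which gives no level for it.

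The log2 ratios of single spots on each array are also deposited, in 32448 numbered rows without gene names. The array medians were 0.98 and -0.39 for replicate 1 and -0.07 and -0.41 for replicate 2, so the first array of replicate 1 stands apart. Taking neighbouring spots 2 at a time as pairs, the plain mean and SD of the 8 values of a pair returned the authors' deposited mean and SD for 117 of the 134 genes with 8 valid spots, to within 0.0051. With the pairs shifted by 1 spot 3 genes matched, with the sign turned 5, with centred arrays 7, and with a single array turned between 4 and 9. For these 117 genes the authors' deposited ratio is the uncentred mean of the spots as deposited, with no array's sign turned before averaging. Between arrays the ratios of all 16224 pairs were nearly unrelated, with Pearson's r between -0.134 and 0.156 across pairs, which are not independent replicates, and r was -0.134 for the 2 arrays of replicate 1 and 0.01 for those of replicate 2. These correlations include spots that the authors may have left out as not valid. With limma on the 2 replicate means, 0 of the 16224 pairs (0.0%) passed an adjusted p of 0.05. An unadjusted p under 0.05 was found for 580 pairs, a share below the 0.05 expected by chance.

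For 4 of the 5 genes, a single spot pair out of 16224 returned the authors' deposited mean, SD and number of valid spots, and none did so with shifted pairs or a turned sign. The rows carry no gene name. The link of each pair to its gene rests on these values alone. The pairs are described as matching pairs rather than as the genes' named probes. Of the 73 genes with 6 valid spots, Erasp among them, 22 had exactly 1 matching pair. With shifted pairs 17 did and with the sign turned 13, so the link of Erasp may be chance. Of the 31 genes with 7 valid spots, Spn55B among them, 22 had exactly 1, against 6 with shifted pairs and 4 turned. Where the link holds, the pairs show what spread lies behind the authors' mean.

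The pair matching CG1299, spots 4539 and 4540, was positive on every array. It read 0.80 and 0.82 on the first array of replicate 1 and 0.82 and 0.81 on the second. In replicate 2 it read 0.48 and 0.50 on the first array and 0.56 and 0.31 on the second. All 8 spots were positive, and the spots of the 2 replicates, with means of 0.81 and 0.46, did not overlap. With array medians subtracted, the pair averaged -0.17 and 1.21 on the arrays of replicate 1 and 0.56 and 0.85 on those of replicate 2. On that scale the first array lay below its median and the replicates overlapped. Both replicates had the same sign in all 111 genes with 8 valid spots and exactly 1 matching pair. The authors selected these genes on the same arrays, so this agreement is no support for CG1299. Over all spot pairs the 2 replicate means had a Pearson's r of 0.03.

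The pair matching Jon99Fi, spots 11797 and 11798, was lower mainly in replicate 2. There it read -2.92 and -1.94 on the first array and -2.72 and -2.58 on the second. In replicate 1 it read 0.53 and -0.78 on the first array and -0.68 and -1.57 on the second. The 2 replicates did not overlap, with means of -2.54 in replicate 2 and -0.63 in replicate 1, and 1 of the 8 spots was positive. The gap of 1.92 between replicates was the third largest among the 111 genes with exactly 1 matching pair, whose median gap was 0.58. With array medians subtracted, the pair averaged -1.11 and -0.74 on the arrays of replicate 1 and -2.36 and -2.24 on those of replicate 2. A 2.99-fold lower level is thus the average of a smaller and a larger difference.

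The pair matching Spn55B, spots 7125 and 7126, was positive on every array. It read 0.98 and 1.16 on the first array of replicate 1 and 1.11 and 1.35 on the second, where the match leaves out the spot at 1.35 as not valid. In replicate 2 it read 0.72 and 0.58 on the first array and 0.51 and 0.32 on the second. The replicate means of the spots kept were 1.08 and 0.53, without overlap in their spots. With array medians subtracted, the pair averaged 0.09 and 1.62 on the arrays of replicate 1 and 0.72 and 0.83 on those of replicate 2, so that the replicates overlapped and the first array lay near its median.

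The pair matching Erasp, spots 22485 and 22486, was positive on 3 arrays and negative on 1. It read 1.05 and 1.08 on the first array of replicate 1, and in replicate 2 it read 1.25 and 1.74 on the first array and 1.10 and 1.21 on the second. On the second array of replicate 1 it read -0.85 and -1.58, and these are the 2 spots that the match leaves out of the authors' 6 valid ones. Over the 6 spots kept the mean was 1.24 and the SD 0.26. Over all 8 spots of this pair the mean was 0.63 and the SD 1.17. With array medians subtracted, the pair averaged 0.09 and -0.83 on the arrays of replicate 1 and 1.57 on both arrays of replicate 2. The tight spread of Erasp in the authors' deposited table thus holds, if the match is right, for the spots kept.

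For Spn43Ab, 2 pairs matched its mean, SD and 6 valid spots, and shifted pairs also gave 2, so no values on single arrays are given for it.

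**Figure D3:**
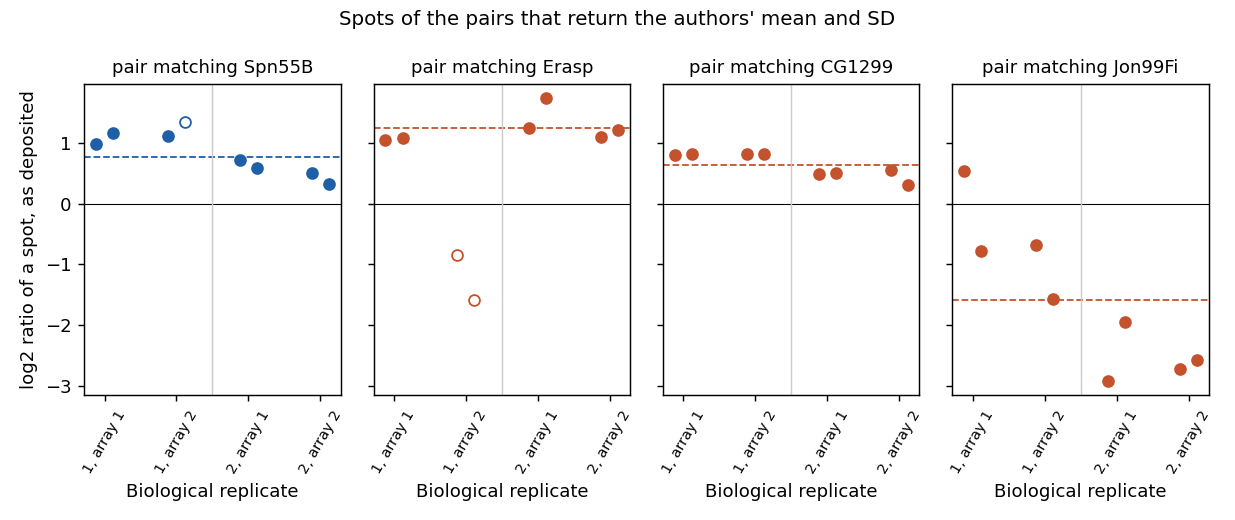
The vertical axis is the log2 ratio of each spot as deposited and the horizontal axis gives the biological replicate and array, for the spot pairs that match Spn55B (blue), Erasp, CG1299 and Jon99Fi (orange). Filled points are spots kept by the match, open points are left out by it, and the dashed line is the authors' mean. The pair matching Jon99Fi averages -2.54 in replicate 2 and -0.63 in replicate 1. In the pair matching Erasp, whose link to the gene is uncertain, the open points at -0.85 and -1.58 lie opposite to its other 6 spots.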

How the data were processed

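The authors deposited 1 table of selected genes with a mean log2 ratio, its standard deviation on the log2 scale, a coefficient of variation (a ratio) and the number of valid spots per gene. It comes from the programs SAM and GeneTraffic, per the labels' series text. The authors also deposited log2 ratios per spot for 4 arrays. How background, normalization, spot filters and cut-offs were set is not stated by the labels or file headers. The driver is written NP2160 in the table and NP2610 in the labels, and for the first array both channels are labelled Cy5.

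The members and lists were chosen with earlier results of these data known. Named are the 5 members, family genes in the table and listed cascade genes. The planned count over family members on the arrays, the highest and lowest family genes on the arrays and the genes most like each member were not run, because the spots carry no gene names. CG numbers were matched to RefSeq Release 6 (227 by locus tag, 13 by synonym, 4 unmatched). Its coordinates gave the gene order and chromosome arms, and sequences were not used here. Spot pairs were compared with the table, and pair means, averaged within each of 2 replicates, were fitted with limma 3.58.1 in R 4.3.3 against 0, with Benjamini-Hochberg adjustment, after a test on simulated data. Python 3.11.15, numpy 2.4.6 and pandas 2.3.3 were used. The number of arrays limits the precision. Whether the replicates came from separate crosses is not given, so p-values measure the spread between these samples.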

Additional observations from a re-analysis of the deposited data

Results flagged for a closer look

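In the spot pair matching Erasp, 1 of the 4 arrays lay far from the others. The second array of replicate 1 averaged -1.215 and the other 3 between 1.07 and 1.50 on the log2 scale, and the gap to the nearest array was 0.841 of the whole range, above the critical value of Dixon's test for 4 values. With array medians subtracted, a setting chosen after seeing the data, the gap was 0.381 of the range and no longer above that value, so it depends on the arrays being uncentred. The other 3 matching pairs had no such array. The 4 arrays are 2 replicates measured on 2 arrays each, and chance gives such a gap in about 1 of 20 groups. The match leaves both spots of that array out of the authors' mean. It came from a search of 16224 pairs in which any 2 spots could be left out. With shifted pairs the same search matched 40 of the 73 genes with 6 valid spots. The pair may thus not be that of Erasp, and nothing about the gene is read from this gap.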

How the results depend on the processing

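Read as driver over PGRP-LE, every ratio changes sign: Spn43Ab -0.80, Spn55B -0.77, Erasp -1.24, CG1299 -0.64 and Jon99Fi 1.58, with 1 of 5 genes and 23.4% of the table higher and inhibitors minus proteases at -0.69. That difference was 0.69 as reported, 0.145 between medians, -0.155 without Jon99Fi and 0.87 with CG3604 as an inhibitor, a choice made after seeing the data. Of the 5 genes, 1 was higher with at least 8 valid spots (of 2 left, where 75.7% of the table was higher). At a size of at least 1, 1 was higher (of 2 left, where 83.2% of the table was higher). With a coefficient of variation under 0.5, all 4 genes left were higher, where 78.75% of the table was. Jon99Fi, at 0.76, was not among them. Limma called 0 pairs in the settings run except with centred arrays (7); 300 pairs had a size of at least 1 in both replicates. Without replicate 1 the matching pair of Jon99Fi averaged -2.54 and without replicate 2 -0.63; for Spn55B these were 0.53 and 1.08, for CG1299 0.46 and 0.81, and for Erasp 1.33 and 1.07. Over all 8 spots, an alternative added after seeing the data, the pair matching Erasp averaged 0.63. Centring the arrays gave 0.68, 1.07, 0.61 and -1.61 for Spn55B, Erasp, CG1299 and Jon99Fi. The cause of these changes was not tested. No separate paired analysis was run, because both groups share each array and each ratio already compares them within it. Choices between several probes of a gene were not run, since spots carry no names.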
